A study of Mus musculus with 3 samples.

Results

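The RAS and MAP kinase pathway genes described here are 36 genes, taken as the rows of the deposited tables whose gene symbol equals a listed name, of 21881 gene symbols in all. They were measured by total RNA sequencing in 3 snap-frozen NDL(UCD) tumours, each from a different female mouse. NDL(UCD) is a line of mouse mammary tumour cells that stands as a model of ErbB2-driven cancer and grows after transplantation. The line was grown in culture and injected into uncleared mammary fat pads of FVB/NJ hosts (strain entered as FVB/N in the sample labels) that were 6 to 8 weeks old. Collected tumours measured 5 to 10 mm. The NDL model is known for an activated Erbb2 (Neu) transgene driven by a mammary tumour virus promoter. All 3 tumours derive from 1 line, form a single group without a normal or treated counterpart, and can hold host epithelium, stroma and immune cells, because the fat pads were not cleared. Values are FPKM, fragment counts scaled to transcript length and to library size, with tumours numbered 1 to 3 in accession order, and a mean ± SD is over n = 3 tumours. All 36 genes had a row in each tumour, and 35 had the quantification status OK in all 3. The exception was Gab2, whose estimate in tumour 2 carried the status FAIL, with an interval from 0 to 7.62 FPKM around 3.75 FPKM, so that it was left out of the tests across genes.

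ErbB receptors signal through this pathway. A phosphorylated receptor binds adaptors such as GRB2 and SHC1, which bring the exchange factors SOS1 and SOS2 to the membrane, where they load RAS with GTP. RAS then recruits RAF kinases, which phosphorylate MEK (Map2k1 and Map2k2), which phosphorylates ERK. GTPase-activating proteins such as neurofibromin (Nf1) return RAS to its GDP-bound state, and parallel MAP kinase cascades end in JNK (Mapk8 and Mapk9), p38 (Mapk14) and ERK5 (Mapk7). Much of the pathway's activity is set by phosphorylation and by GTP loading, which RNA levels do not measure.

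In the MAP kinases of these branches the kinase above phosphorylates a threonine and a tyrosine of the activation loop. The coding sequence around these codons is shown for the MAP kinase genes among the members. The codon between them separates the ERK, JNK and p38 genes, but not Mapk3 from Mapk7. The stretches were read from GENCODE transcripts (release M21, build GRCm38), each lies within 1 exon, and the capitals mark the threonine codon, the middle codon and the tyrosine codon.
Mapk3 (chr7:126763446-126763478, plus strand): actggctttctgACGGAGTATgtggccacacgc
Mapk7 (chr11:61491410-61491442, minus strand): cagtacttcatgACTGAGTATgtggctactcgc
Mapk8 (chr14:33392991-33393023, minus strand): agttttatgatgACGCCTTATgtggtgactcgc
Mapk9 (chr11:49872818-49872850, plus strand): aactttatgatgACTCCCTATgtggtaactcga
Mapk14 (chr17:28728387-28728419, plus strand): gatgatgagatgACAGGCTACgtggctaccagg
The middle codon is GAG in the ERK genes Mapk3 and Mapk7, CCT or CCC in the JNK genes Mapk8 and Mapk9, and GGC in the p38 gene Mapk14.

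Most of the pathway was detected well above the reference level of 1 FPKM in every tumour. By limma on log2(FPKM + 0.1) against 1 FPKM, with Benjamini-Hochberg adjustment over 18028 genes, 30 of the 35 members tested were above that level and 1 was below it, beside 54.2% of all genes above and 32.5% below. Setting the tumours to a common FPKM total, which raises every value, put 34 above and 0 below. The median of the members' mean levels was 6.70 FPKM, beside 2.44 FPKM over all genes tested, and the median member stood at percentile 68.7 of those genes. Map2k1 was the highest at 28.3 ± 6.20 FPKM and Shc2 the lowest at 0.270 ± 0.209 FPKM. In the order of mean levels only 4 of 35 neighbouring pairs differed by more than the SD of their difference within tumours, namely Map2k1 over Mapk3, Mapk14 over Grb2, Mapk9 over Rps6ka3 and Mapk7 over Shc2, so that the ranks of the others should not be read finely. The deposited intervals implied from 10 to 7337 fragments per member and tumour among the members with status OK, and intervals cover counting error only. Values and orders of tumours are as deposited unless given with trends removed, which means after each tumour's trend with transcript GC content and length was taken out.

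**Figure D1:**
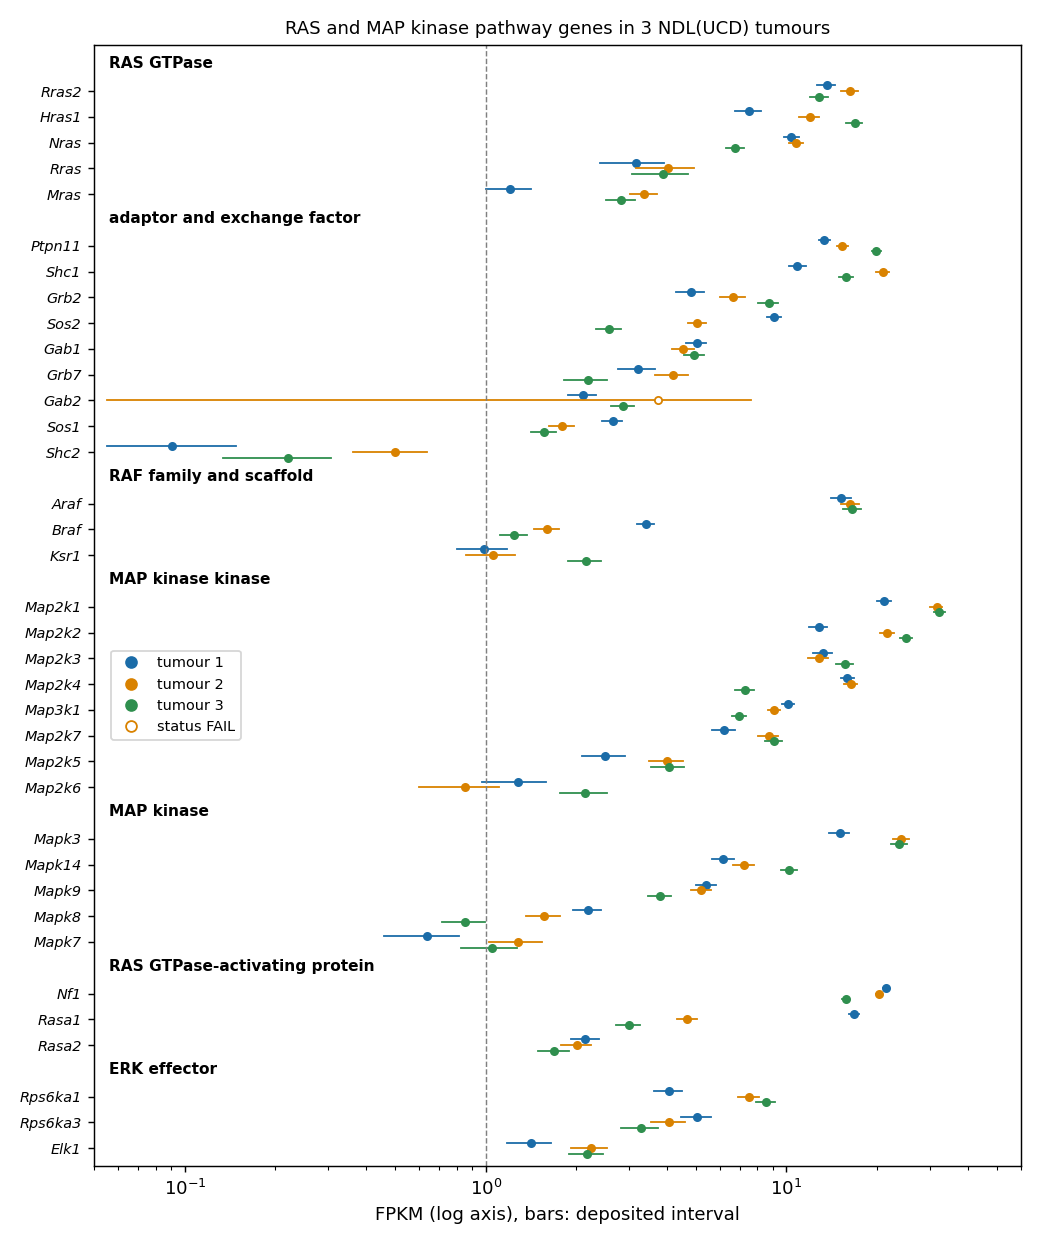
FPKM (log axis) of each of the 36 members in tumours 1 to 3, grouped by role and ordered by mean level within a role, with the deposited interval as a bar (bars are cut at the left edge of the plot) and the level of 1 FPKM as a dashed line. Map2k1 is highest at 28.3 FPKM on average, Shc2 lies below 1 FPKM in all 3 tumours, and the open point is the Gab2 estimate of tumour 2 with status FAIL.

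Among the RAS GTPases, Rras2, which encodes the R-RAS relative TC21, had the highest mean, 14.2 ± 1.78 FPKM, with 13.6, 16.2 and 12.9 FPKM in the order of the tumours (mm9 chromosome 7, 121190296 to 121261295). Hras1 was at 7.49, 11.9 and 16.8 FPKM (mm9 chromosome 7, 148375833 to 148379903) and Nras at 10.4, 10.8 and 6.75 FPKM (mm9 chromosome 3, 102862208 to 102871837). Their transcripts had a GC content (median over a gene's transcripts) of 57.6% for Hras1 and 45.9% for Nras. Nras was the higher of the 2 in tumour 1 and Hras1 in tumour 3, and the difference, 0.33 ± 0.90 log2 units, was smaller than its spread (exact two-sided sign-flip test, p = 0.75). Without tumour 3 it was -0.16. Rras, a RAS relative with a role in integrin adhesion, was at 3.15, 4.04 and 3.88 FPKM. It was lower than Rras2 by 1.92 ± 0.19 log2 units, in 3 of 3 tumours. Mras, a GTPase that acts with SHOC2 in RAF activation, was at 1.21, 3.37 and 2.82 FPKM, and lowest in tumour 1. Rras2 exceeded Mras by 2.59 ± 0.69 log2 units, a 6.03-fold difference.

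Of the proteins between receptor and RAS, Ptpn11, the gene of the phosphatase SHP2, which promotes RAS signalling, had the highest mean at 13.4, 15.3 and 19.9 FPKM. The adaptor gene Shc1 was at 10.9, 20.9 and 15.8 FPKM, lowest in tumour 1, and with trends removed at 14.8, 19.3 and 12.6 FPKM, lowest in tumour 3. Its relative Shc2, known mainly from neurons, was at 0.0905, 0.50 and 0.219 FPKM and was the single member called below 1 FPKM (limma adjusted p = 0.0016, and 0.094 without tumour 3, within a range of 0.00050 to 0.25 over the alternatives). Shc1 exceeded Shc2 by 5.54 ± 0.37 log2 units, or 46.5-fold, the largest difference among the 17 contrasts between related members. Shc2 lies near the added 0.1 FPKM, and the difference was 3.70 log2 units with 1 FPKM added and 6.07 with 0.01 FPKM added. Grb2, the adaptor that carries SOS, was at 4.80, 6.66 and 8.72 FPKM, and Grb7, an adaptor gene next to Erbb2 on chromosome 11, at 3.20, 4.18 and 2.18 FPKM. Grb2 was the higher in 3 of 3 tumours, by 1.06 ± 0.77 log2 units.

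The exchange factor genes differed from each other in a constant direction. Sos2 was at 9.11, 5.05 and 2.57 FPKM and Sos1 at 2.65, 1.79 and 1.57 FPKM, both highest in tumour 1 and lowest in tumour 3. With trends removed that order held for Sos2, while Sos1 was at 1.75, 1.92 and 2.21 FPKM, lowest in tumour 1. Sos1 was the lower in 3 of 3 tumours, by 1.29 ± 0.55 log2 units. The deposited intervals were apart in each, as they were for 14 of the 17 contrasts. The docking protein genes were at moderate levels. Gab1 was at 5.03, 4.54 and 4.93 FPKM, with a CV of 5.38%, but with trends removed at 6.05, 4.32 and 4.32 FPKM, a ratio of highest to lowest of 1.40. Gab2 was at 2.10 and 2.86 FPKM in tumours 1 and 3. Gab1 minus Gab2 was 0.75 ± 0.48 log2 units with the failed estimate of tumour 2 and 0.99 without tumour 2.

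In the RAF family Araf was at 15.2, 16.3 and 16.6 FPKM, with a CV of 4.50%, the lowest of the 36 genes as deposited (mm9 chromosome X, 20425669 to 20437647). With trends removed it was at 20.01, 15.1 and 13.6 FPKM, a ratio of 1.47. With its longest transcript used for the removal, Araf was instead at 14.5, 15.5 and 18.3 FPKM, a ratio of 1.26, and highest in tumour 3. Its annotated locus overlaps that of Syn1, and no source used here gives the strand setting. Braf, its close relative, was at 3.42, 1.60 and 1.24 FPKM (mm9 chromosome 6, 39553237 to 39675462), highest in tumour 1. Araf exceeded Braf by 2.12, 3.27 and 3.63 log2 units in the 3 tumours, on average 3.01 ± 0.79 or 8.05-fold. Ksr1, the gene of a scaffold that holds RAF, MEK and ERK together, was at 0.990, 1.06 and 2.15 FPKM and was not separated from 1 FPKM (limma adjusted p = 0.29).

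The MEK genes were among the most abundant members, with only Mapk3 between Map2k1 and Map2k2 in mean level. Map2k1 was at 21.2, 31.6 and 32.2 FPKM (mm9 chromosome 9, 64033600 to 64101412) and Map2k2 at 12.8, 21.7 and 25.0 FPKM (mm9 chromosome 10, 80568692 to 80587442). As deposited both were lowest in tumour 1. Map2k1 was the higher in 3 of 3 tumours, by 0.54 ± 0.18 log2 units or 1.46-fold. With trends removed Map2k1 was at 25.2, 29.3 and 29.1 FPKM and Map2k2 at 17.7, 19.9 and 19.7 FPKM. With its longest transcript used for the removal, Map2k1 was at 27.6, 28.8 and 27.0 FPKM, lowest in tumour 3. The locus of Uchl4 overlaps that of Map2k1. The p38 kinase kinase genes had unequal levels. Map2k3, which activates p38, was at 13.3, 12.8 and 15.6 FPKM, whereas Map2k6, which also activates p38, was at 1.28, 0.854 and 2.15 FPKM and was not separated from 1 FPKM (limma adjusted p = 0.28). Map2k3 exceeded it by 3.28 ± 0.47 log2 units, or 9.72-fold, and by 2.65 log2 units with 1 FPKM added in place of 0.1.

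For the kinases above JNK, Map2k4 was at 15.96, 16.4 and 7.26 FPKM and Map2k7 at 6.19, 8.72 and 9.08 FPKM. Map2k4 was the higher in tumours 1 and 2 and the lower in tumour 3, and the difference of 0.65 ± 0.86 log2 units was smaller than its spread (exact two-sided sign-flip test, p = 0.50). Map2k5, the activator of ERK5, was at 2.50, 4.02 and 4.06 FPKM. Map3k1, a kinase further up that feeds mainly into the JNK branch, was at 10.1, 9.09 and 6.96 FPKM. Of these 8 kinase genes 7 were called above 1 FPKM, beside 54.2% of all genes. As deposited 6 of the 8 had their highest value in tumour 3, as did 5247 of the 11058 genes averaging 1 FPKM or more, and with trends removed only Map2k6 did.

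Of the MAP kinases themselves, the ERK1 gene Mapk3 was at 15.03, 24.0 and 23.7 FPKM (mm9 chromosome 7, 133903140 to 133909330), lowest in tumour 1, and with trends removed at 20.7, 21.98 and 18.8 FPKM, lowest in tumour 3. The p38 alpha gene Mapk14 was at 6.17, 7.22 and 10.2 FPKM, and Mapk3 exceeded it by 1.40 ± 0.28 log2 units. Mapk7, the ERK5 gene, shares the GAG middle codon of the activation loop with Mapk3, but was at 0.636, 1.28 and 1.05 FPKM and not separated from 1 FPKM (limma adjusted p = 0.85). Mapk3 exceeded Mapk7 by 4.36, 4.12 and 4.37 log2 units, on average 4.29 ± 0.14 or 19.5-fold, with the smallest SD of the 17 contrasts as deposited. With 1 FPKM added in place of 0.1 it was 3.45. The JNK genes had unequal levels. Mapk9 (JNK2) was at 5.41, 5.21 and 3.80 FPKM and Mapk8 (JNK1) at 2.18, 1.56 and 0.856 FPKM, lower than Mapk9 by 1.66 ± 0.38 log2 units, or 3.15-fold. Mapk8 was not separated from 1 FPKM (limma adjusted p = 0.18), but was called above it with trends removed (limma adjusted p = 0.041), within a range of 0.0021 to 0.58 over the alternatives.

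The GTPase-activating protein genes, whose products switch RAS off, were all called above 1 FPKM, beside 54.2% of all genes. Nf1 was at 21.4, 20.3 and 15.7 FPKM (mm9 chromosome 11, 79153394 to 79395111), and the loci of Evi2a, Evi2b and Omg lie within its annotated span. Rasa1, the p120 RasGAP gene, was at 16.8, 4.68 and 2.99 FPKM (mm9 chromosome 13, 85354304 to 85429091), so that tumour 1 stood far above the others. Rasa2 was at 2.14, 2.01 and 1.69 FPKM. Each of the 3 genes had its highest deposited value in tumour 1 and its lowest in tumour 3. With trends removed that order held for Rasa1 alone, while Nf1 was at 16.5, 20.4 and 20.3 FPKM and Rasa2 at 1.17, 2.27 and 2.73 FPKM, both lowest in tumour 1. Nf1 exceeded Rasa1 by 0.35 log2 units in tumour 1 and by 2.10 and 2.36 in tumours 2 and 3, on average 1.60 ± 1.09 and 2.23 without tumour 1. Rasa1 exceeded Rasa2 by 1.62 ± 1.13 log2 units, and by 0.98 without tumour 1.

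Among genes of ERK effectors, the ribosomal S6 kinase genes Rps6ka1 (RSK1) and Rps6ka3 (RSK2) were at 4.06, 7.51 and 8.54 FPKM and at 5.03, 4.07 and 3.28 FPKM. As deposited the first had its lowest value in tumour 1 and the second its highest there, but with trends removed Rps6ka3 was at 3.69, 4.13 and 4.42 FPKM, also lowest in tumour 1. Their difference of 0.64 ± 0.85 log2 units was smaller than its spread (exact two-sided sign-flip test, p = 0.50). Elk1, an ETS factor that ERK phosphorylates, was at 1.41, 2.23 and 2.17 FPKM. Over the 17 contrasts 14 had the same sign in all 3 tumours and a mean larger than the SD. With 3 tumours the exact two-sided test cannot go below p = 0.25, and adjusted over the 17 contrasts each of these 14 had p = 0.30.

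**Figure D2:**
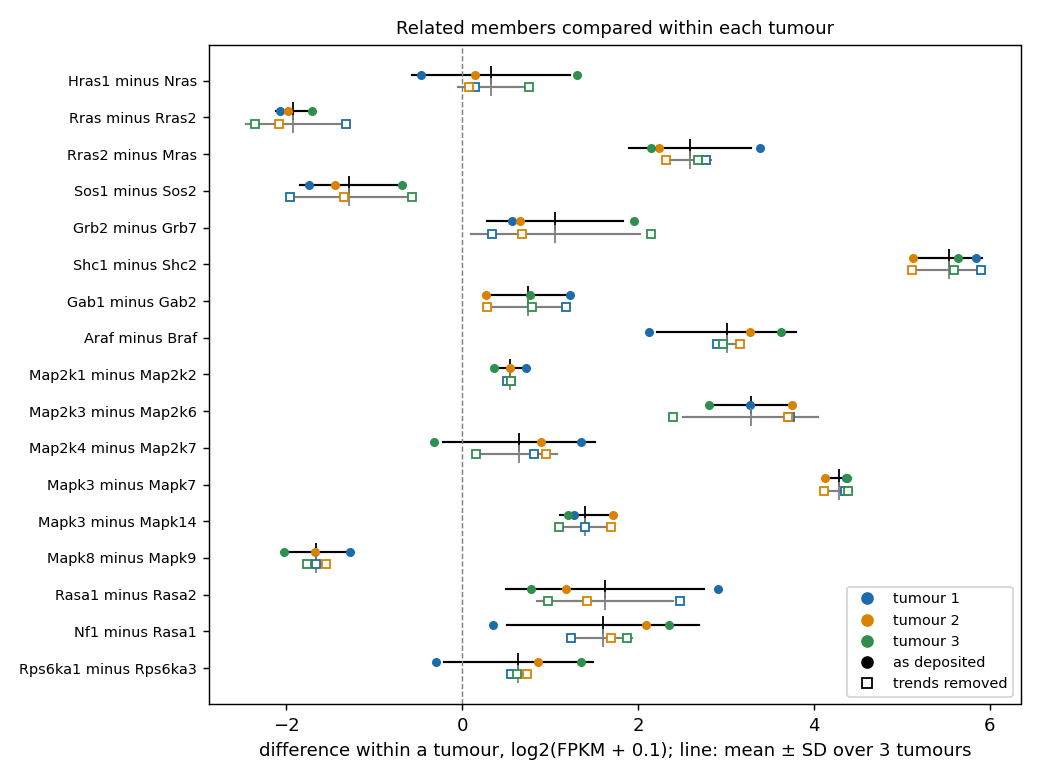
Difference between related members within each tumour on the log2(FPKM + 0.1) scale, as deposited (filled points, black line for mean ± SD) and with the trends with GC content and length removed (open squares, grey line). Map2k1 minus Map2k2 and Mapk3 minus Mapk7 have SDs of 0.18 and 0.14 log2 units as deposited, while Hras1 minus Nras runs from -0.47 in tumour 1 to 1.31 in tumour 3 and draws together to between 0.08 and 0.76 with the trends removed.

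Some calls above 1 FPKM were lost when 1 tumour was left out and the fit rested on 2 tumours. Without tumour 2, 23 members were called above and 7 calls were lost, those of Mras, Sos1, Sos2, Braf, Rasa1, Rasa2 and Elk1, with limma adjusted p between 0.070 and 0.21. The levels of Sos2 and Rasa1 were then 2.17 and 2.71 log2 units above 1 FPKM, beside 2.19 and 2.52 over all 3 tumours. Adjusted p also rose for members that kept the call, as for Map2k1 from 2.2e-07 to 0.0073 (limma). A lost call is therefore not by itself a lower level. Without tumour 3 the calls of Mras, Braf and Elk1 were lost (limma adjusted p = 0.19, 0.092 and 0.099), and without tumour 1 that of Braf (0.12).

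Differences between the tumours beyond counting error were common in these genes, but no more so than elsewhere. By Cochran's Q on the deposited standard errors (Benjamini-Hochberg over 11058 genes averaging 1 FPKM or more) together with a highest-to-lowest ratio of at least 2, 10 of the 33 members tested differed between tumours, 30.3%, beside 32.5% of all genes tested. By Cochran's Q alone, whatever the ratio, 30 of the 33 passed, beside 91.6% of all genes. There was 1 library per tumour, so this sets tumours against counting error and not against repeated libraries. Of the 10 members 8 are grouped here by the direction of their difference, with their transcript GC content. Rasa1 (ratio 5.61), Sos2 (3.54), Braf (2.75) and Mapk8 (2.55) were highest in tumour 1 and lowest in tumour 3, with a transcript GC content of 35.6% to 44.6%. Mras (2.79), Hras1 (2.25), Ksr1 (2.17) and Rps6ka1 (2.10) were lowest in tumour 1, with a GC content of 52.5% to 57.7%. The remaining members were Map2k4 (2.26), lowest in tumour 3, and Map2k6 (2.51), lowest in tumour 2, with a GC content of 46.4% and 47.1%. Genes at large were split alike. Their median tumour 3 minus tumour 1 difference was -1.04 log2 units in the bin of GC content that starts at 40%. In the bin that starts at 55% it was 0.78.

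The same relation to GC content appeared in most of the 36 members, and in genes at large. Of the 18 members with the lower transcript GC content 13 were lower in tumour 3 than in tumour 1, with a median difference of -0.52 log2 units, and of the 18 with the higher GC content 16 were higher in tumour 3, with a median difference of 0.65. Across the 36 members the tumour 3 minus tumour 1 difference and GC content had Pearson's r = 0.78 and Spearman's rho = 0.71, and across 10935 genes averaging 1 FPKM or more r = 0.66 and rho = 0.67. These are descriptions across genes that share the same 2 libraries. Relative to each gene's mean over the tumours, the median gene stood at -0.23, 0.08 and 0.13 log2 units in tumours 1, 2 and 3, and the median member at -0.06, 0.10 and 0.05.

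**Figure D3:**
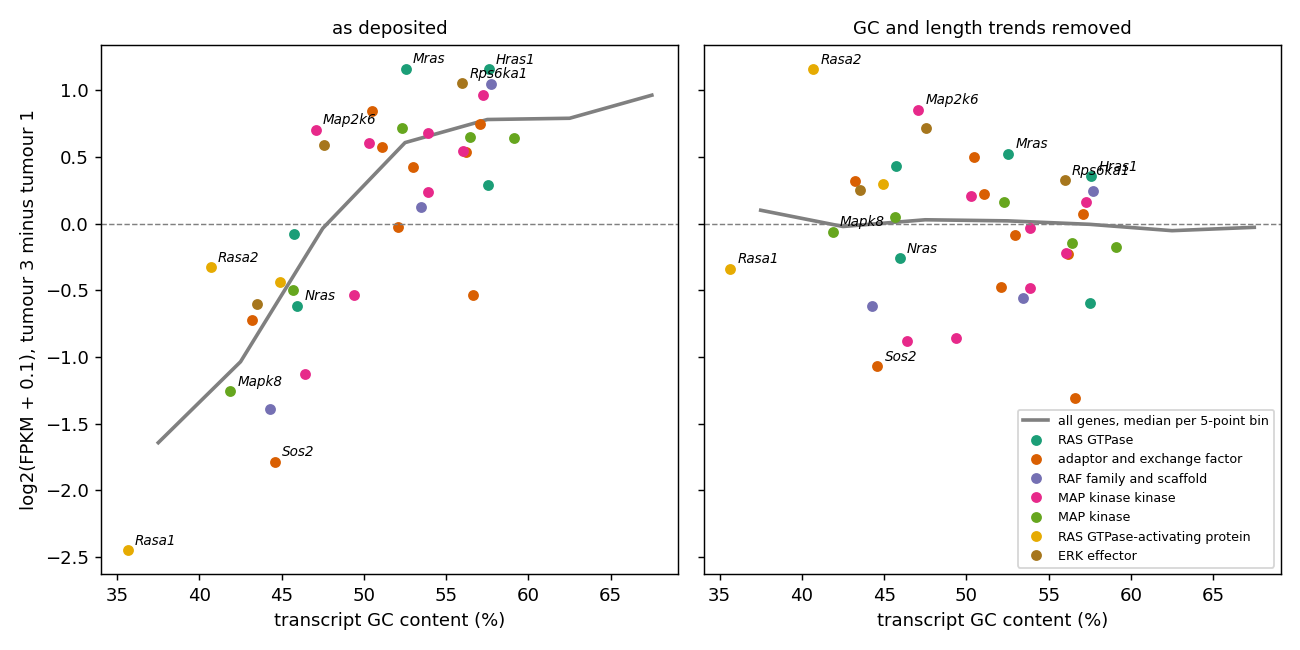
Tumour 3 minus tumour 1 on the log2(FPKM + 0.1) scale against transcript GC content for the 36 members, coloured by role, with the median over all genes averaging 1 FPKM or more in bins of 5 percentage points as a grey line (bins of at least 20 genes). As deposited (left) the members rise with GC content from Rasa1 to Hras1 along the line for all genes, with r = 0.78. With the trends removed (right) r is -0.14, where the removal takes out the relation with GC content by its construction.

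When the trend of each tumour with transcript GC content and length was removed, 4 members differed between tumours (beside 17% of all genes tested), of which 2, Sos2 and Map2k6, were among the 10. Hras1 then lay at 10.3, 11.0 and 13.2 FPKM and Nras at 9.34, 10.4 and 7.79 FPKM, and Hras1 was the higher in 3 of 3 tumours. With each gene's longest transcript used for the removal, Nras was the higher in tumour 2, at 11.0 beside 10.9 FPKM. Rps6ka1 went to 5.48, 6.93 and 6.88 FPKM and Mapk8 to 1.36, 1.69 and 1.30 FPKM, with ratios of 1.26 and 1.30. The opposite happened for Rasa2 and Grb7, which passed the ratio of 2 with the trends removed and not as deposited. Grb7 also reached it, at 2.00, with median-of-ratios scaling. Rasa2 had deposited values within 1.27-fold but 1.17, 2.27 and 2.73 FPKM after removal, and Grb7 went to 4.40, 3.85 and 1.72 FPKM.

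Rasa1, like Araf, depended on which transcript stood for the gene. With the median over its annotated transcripts it lay at 6.96, 6.22 and 5.48 FPKM, a ratio of 1.27, and with its longest transcript at 11.4, 4.86 and 4.26 FPKM, a ratio of 2.69. The longest transcripts, an alternative chosen after seeing the data, gave 5 members that differed, the other 4 being Sos2, Map2k6, Grb7 and Rasa2, beside 17.1% of all genes tested. Sos2 was at 7.10, 5.03 and 3.33 FPKM with the median transcript and at 7.48, 5.00 and 3.18 FPKM with the longest, highest in tumour 1 throughout. Map2k6 was at 1.24, 0.814 and 2.32 FPKM with the median transcript, highest in tumour 3 as deposited too.

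**Figure D4:**
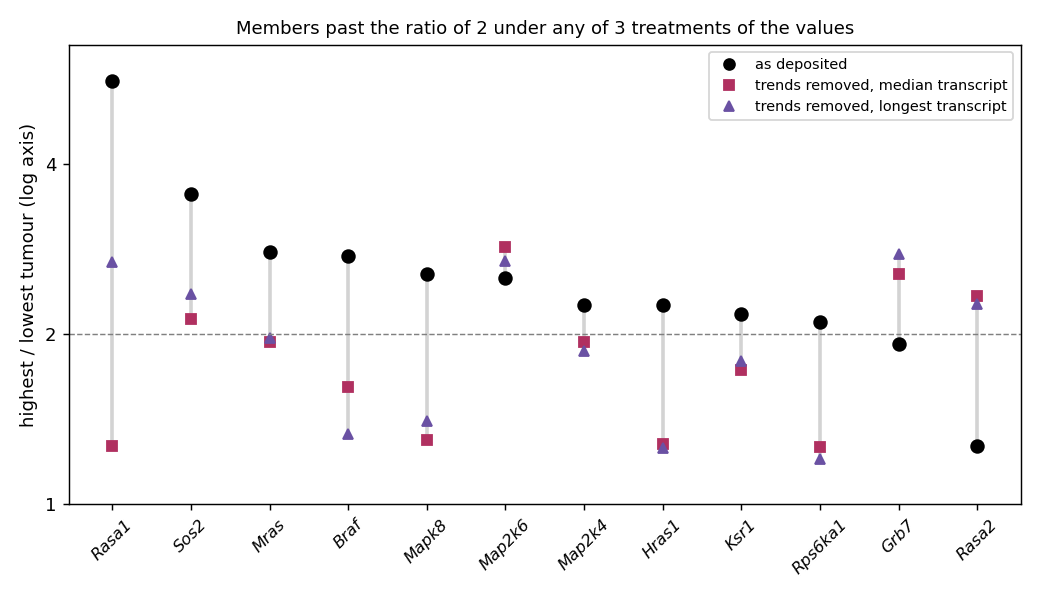
Ratio of the highest to the lowest tumour (log axis) for the 12 members that passed the ratio of 2 and Cochran's Q as deposited or with GC and length trends removed in either way. Sos2 and Map2k6 stay above 2 under all 3 treatments of the values, Hras1, Braf, Mapk8 and Rps6ka1 fall well below 2 once trends are removed, and Rasa2 and Grb7 rise above it.

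Removing the trends also changed how steady the contrasts between related members were. By its construction it leaves each gene's mean on the log2 scale, and hence each mean difference, as it was. The SD fell in 10 of 17 contrasts and rose in 7, and all 17 then had 1 sign in all 3 tumours. These SDs are for the removal with the median over a gene's transcripts. For Araf minus Braf the SD fell from 0.79 to 0.13 log2 units and for Rps6ka1 minus Rps6ka3 from 0.85 to 0.09. For Mapk8 minus Mapk9 it fell from 0.38 to 0.11 and for Map2k1 minus Map2k2 from 0.18 to 0.03. It rose for Rras minus Rras2, from 0.19 to 0.54, and for Map2k3 minus Map2k6, from 0.47 to 0.77. With the longest transcripts the SD fell in 8 of 17. Araf was then at 14.5, 15.5 and 18.3 FPKM and Braf at 2.29, 1.75 and 1.72 FPKM, so that their difference grew from tumour 1 to tumour 3. With the longest transcripts Hras1 minus Nras did not keep 1 sign, because Nras was the higher in tumour 2.

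Summed levels of cell type markers also varied between the tumours, which was not tested. All 6 luminal epithelial markers were above 1 FPKM by limma, with summed levels of 949, 1291 and 1155 FPKM in tumours 1, 2 and 3, and of 1248, 1193 and 939.8 FPKM with trends removed. All 8 macrophage markers were above it and summed to 282, 510.3 and 964 FPKM, and with trends removed to 335, 478 and 894 FPKM. The adipocyte markers, of which 2 of 5 were above it, summed to 60.3, 44.7 and 195 FPKM, and with trends removed to 39.5, 48.2 and 281 FPKM. All 7 fibroblast markers were above it and summed to 255, 343 and 286 FPKM, and the endothelial markers to 17.7, 26.9 and 24.9 FPKM. Of 7 T-cell markers 6 had a row, with 2 above 1 FPKM by limma and 2 below. They summed to 6.25, 7.27 and 11.3 FPKM. All 4 B-cell markers were below it and summed to 0.133, 0.429 and 0.714 FPKM. The skeletal muscle markers, 2 above it and 3 below, summed to 39.4, 49.9 and 59.2 FPKM. With trends removed the muscle sum was 54.1, 46.0 and 46.7 FPKM, highest in tumour 1. No list had a marker at 0 in all 3 tumours. As deposited Hras1, Ksr1 and Rps6ka1 had the same order of tumours as the macrophage sum, but so had other members such as Map2k1 and Map2k2. Of the 11058 genes averaging 1 FPKM or more, 5247 were highest in tumour 3, whatever the order of tumours 1 and 2. How many had the full order of the macrophage sum was not counted. With trends removed Hras1 kept the order of the macrophage sum, while Ksr1 was at 1.40, 0.967 and 1.67 FPKM and Rps6ka1 at 5.48, 6.93 and 6.88 FPKM. The part of cell composition in the differences of these genes was not tested. In bulk tumours fewer cells of a type and less RNA per cell cannot be told apart.

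The other genes of the pathway were 70 further genes in the tables, from a list of 71. By limma 48 of the 70 were above 1 FPKM and 15 below, again beside 54.2% and 32.5% of all genes, and the median of their mean levels was 4.00 FPKM. The small GTPase genes Rap1b, at 33.5, 31.03 and 20.8 FPKM, and Ralb, at 16.6, 25.5 and 27.2 FPKM, were among the highest 3. The lowest were Shc3, Rps6ka6 and the neuronal JNK3 gene Mapk10, each listed at 0 in 2 of 3 tumours. Between tumours 15 of the 52 averaging 1 FPKM or more differed, 28.8% beside 32.5% of all genes, and 8 differed with the trends removed, beside 17%.

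Of the 15, Nck1, an SH2 and SH3 adaptor gene, had the largest ratio, 5.81, with 35.8, 13.3 and 6.16 FPKM as deposited and 25.4, 13.7 and 8.42 FPKM with the trends removed. Irs1, the insulin receptor substrate gene, was at 28.3, 21.0 and 12.2 FPKM, and Crk, an adaptor gene, was at 23.5, 15.6 and 11.7 FPKM. Both still differed with the trends removed, with ratios of 2.91 and 3.13, as did Shc4 (2.06) and Mapk12 (3.17). Rap1a was at 30.0, 14.6 and 10.7 FPKM as deposited and at 15.9, 17.2 and 17.2 FPKM with the trends removed. Shoc2, the partner of MRAS, was at 22.7, 10.9 and 7.36 FPKM and had a ratio of 1.94 after removal. Map3k7, Rasal2, Rgl1, Dab2ip, Mapkapk2, Mapk11 and Rps6ka4 also passed as deposited, with ratios of 2.00 to 2.61, and none of these 7 did with the trends removed.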

How the data were processed

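Each tumour has 1 file of 22310 rows in which the authors deposited an FPKM, its interval and a status, per the file headers. TopHat, Cufflinks and the build mm9 are listed, without roles or versions, per the submitters' processing notes. The annotation was not given in the sources used here, nor was the strand setting. Rows of 221 repeated symbols were added up, and 182 symbols without status OK in all 3 tumours were left out. FPKM totals were 318509, 375968 and 364195, and the intervals (half-width taken as 2 standard errors) implied about 11.7 M, 12.4 M and 13.4 M mapped fragments (M, mega). Levels were tested with limma 3.58.1 (trend, robust) in R 4.3.3 on log2((FPKM + 0.1)/(1 + 0.1)), and tumours were compared with Cochran's Q on 2 degrees of freedom, both at an adjusted p of 0.05. Trends with GC content and length (GENCODE M21, median over a gene's transcripts, 98.3% of symbols matched) were removed per tumour by lowess with a span of 0.3. All 36 members had a GC value. The median covers every annotated transcript of a gene, and its length was 544 nt for Map3k1 and 677 nt for Rasa1. All values with trends removed depend on this choice of transcript. The steps were tested on simulated data. Separate mice are stated, with 1 library each, so the spread joins differences between animals with differences between libraries. Named genes are all members and, of the other pathway genes, the 3 highest, the 3 lowest and those that differed between tumours. Some genes that this rule names are not reported here. Members and lists were chosen with earlier results of these data known.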

Additional observations from a re-analysis of the deposited data

How the results depend on the processing

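The counts of members above 1 FPKM ranged from 23 to 34 over all alternatives. The count below 1 FPKM was 0 instead of 1 with the same FPKM total and with genes under a mean of 0.5 FPKM left out, and leaving out 1 tumour gave 0 to 1. Of the other pathway genes, 9 were below with the same FPKM total and 1 with the 0.5 FPKM filter, which removes low genes, instead of 15. Mapk7, at -0.06 log2 units from 1 FPKM, was at 1.35 with the same FPKM total, and leaving out 1 tumour moved it between -0.26 and 0.20. Of 33 members, 4 differed between tumours with GC and length trends removed, 5 with those of the longest transcript and 22 with a ratio of 1.5, beside 68.6% of all genes. Leaving out 1 tumour gave 3 to 9: 3 of 34 without tumour 1 (Ksr1, Map2k4 and Map2k6, all among the 10, beside 5.72% of all genes), 9 of 33 without tumour 2 (29.6%) and 3 of 33 without tumour 3 (Mras, Braf and Rasa1, 14.2%). Median-of-ratios scaling gave 9 (28.1%), of which 7 were among the 10: Hras1, Ksr1 and Rps6ka1 dropped out, Sos1 and Grb7 came in. Hras1 minus Nras was -0.16 without tumour 3 and lay between -0.16 and 0.73 over the omissions. The other 16 contrasts kept their direction under all alternatives run. No paired analysis was possible because there is a single group. Depth limits Shc2, which rested on 10, 52 and 26 implied fragments.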
